A study of Mus musculus with 9 samples.

Results

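The isozymes of the glycolytic steps that have both a muscle form and a form of foetal or other tissues were followed through birth in the mouse heart. The genes were chosen by name from the table of the study, as *Hk1* and *Hk2* (hexokinase), *Pfkl*, *Pfkm* and *Pfkp* (phosphofructokinase), *Pgam1* and *Pgam2* (phosphoglycerate mutase), *Eno1* and *Eno3* (enolase) and *Fbp2* (muscle fructose-1,6-bisphosphatase). They are 10 of the 48820 genes in the table. Genes were tested where their average over all hearts reached 1 FPKM, which 13618 did, all 10 isozyme genes among them. The study measured RNA of whole hearts by sequencing to follow the transcriptome across birth. It took 9 untreated hearts of wild-type C57BL/6J mice, all labelled male, with 3 biological replicates each at embryonic day 18.5 (E18.5d), postnatal day 1 (P1d) and postnatal day 7 (P7d). By these labels the 3 stages shared strain, genotype and treatment, and differed in age, before or after birth. By their RNA they differed in sex composition too, as given below. The values are FPKM (fragments per 1e6 mapped, divided by transcript length in kilobases), so levels can be set side by side between genes per length.

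Glycolysis splits glucose into pyruvate, and several of its steps are carried out by isozymes that are encoded by separate genes and differ in regulation. Hexokinase traps glucose as glucose 6-phosphate, phosphofructokinase is the main control point of the pathway, and phosphoglycerate mutase and enolase act in its lower part. The foetal heart relies largely on carbohydrate, and the heart turns to fatty acids after birth. In striated muscle PFKM, PGAM2 and ENO3 (the M, muscle and beta forms) become the main forms during maturation, and HK2 is the insulin-responsive hexokinase, whereas HK1, PGAM1 and ENO1 are widely expressed.

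The depth, read from the steps between low FPKM values, was 25.25 to 46.25 times 1e6 fragments per heart, and it was lower at E18.5d (median 32.0) and P1d (28.75) than at P7d (41.25). Not all hearts matched their label: *Xist*, transcribed from the inactive X chromosome of females, lay at 58.0 to 97.0 FPKM in 4 hearts (E18.5d replicates 1 and 3, P7d replicates 2 and 3), in which 4 Y-linked genes were listed at 0, and at 0.02 to 0.11 FPKM in the other 5. No P1d heart is among these 4, so comparisons with P1d differ in sex composition as well as in age. Results are therefore given also without these 4 hearts, which leaves 1, 3 and 1 hearts at E18.5d, P1d and P7d, so that a lone heart is assumed to vary like the P1d hearts. Cardiomyocyte markers were high at every stage: *Myh6*, *Tnnt2*, *Ttn*, *Actn2*, *Ryr2*, *Myl2* and *Myl7* summed to 25405 to 27453 FPKM before birth, 29191 to 33021 at P1d and 30035 to 30566 at P7d. *Myl2* was the largest term, and the members did not move together. From E18.5d to P7d the mean of *Tnnt2* fell from 4431 to 3056 FPKM and that of *Myl7* from 2801 to 1436. The means of the others were higher at P7d, with *Myh6* going from 3220 to 8318. Markers of other cells moved with stage. The 13 skeletal muscle markers, 7 of them under 1 FPKM in every heart and *Pax7* at 0, summed to 18.35 to 24.81 FPKM before birth, then to 13.04 to 14.03 (P1d) and 6.78 to 8.10 (P7d). The 4 endothelial markers summed to 260 to 295, 308 to 341 and 378 to 392 FPKM in the same order, the 3 fibroblast markers to 462 to 471, 370 to 515 and 617 to 633, and the 4 leukocyte markers to 13.3 to 19.6, 48.2 to 73.1 and 25.2 to 28.2. The 6 red blood cell markers summed to 8418 to 22746, 12731 to 24726 and 8550 to 10409 FPKM. The 2 brown fat markers summed to 5.56 to 7.77, 22.4 to 23.0 and 31.3 to 36.7 FPKM, and the 2 liver markers to 0.93 to 7.03, 0.42 to 26.2 and 0.18 to 0.42. The brown fat sum was mostly *Cidea* (means 6.71, 22.3 and 26.7 FPKM), with *Ucp1* at means of 0, 0.45 and 6.62. The part of these cells in the results below was not tested, and in RNA of a whole heart fewer cells of a type and less RNA per cell cannot be told apart.

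Between E18.5d and P7d the transcripts of *Pfkm*, *Eno3* and *Fbp2* rose, and those of *Hk1*, *Hk2*, *Pfkl*, *Pfkp*, *Pgam1*, *Pgam2* and *Eno1* fell. The falls of *Hk2* (log2 change -0.28) and *Pgam2* (-0.18) depended on the scale of the columns. Rescaled by median of ratios they came to -0.07 and 0.03 and were not called. The 3 genes higher at P7d stand beside 12.5% of all tested genes called higher, and the 7 genes lower beside 36.9% called lower, by limma at a Benjamini-Hochberg adjusted p under 0.05. Already at P1d, 2 of the 10 (*Pfkm* and *Fbp2*) were higher than at E18.5d and 7 were lower, against 18.4% and 27.6% of all tested genes, and *Eno3* did not pass. From P1d to P7d the balance turned: 7 of the 10 rose and 2 (*Eno1* and *Pfkp*) fell, against 15.5% and 28.6% of all tested genes, and *Hk1* did not pass. The count of 2 was 1 without P7d replicate 2, under each of 3 rescalings of the columns and with a covariate for *Xist*. The count of 7 ran from 5 to 7 with 1 heart left out. With the covariate for *Xist*, *Pgam1* (limma adjusted p = 0.204) and *Pgam2* (adjusted p = 0.176) lost their calls as risen. The median log2 change of the 10 genes was -0.45 from E18.5d to P7d, -0.51 from E18.5d to P1d and 0.35 from P1d to P7d, and that of all tested genes was -0.17, -0.06 and -0.09.

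These changes are on the scale of log2(FPKM + 1), which understates those of low values, and they depend on the scale of the columns. Rescaling by median of ratios brought the median change of all tested genes from -0.17 to 0.01 at P7d against E18.5d, and turned 1706 higher and 5025 lower genes into 3159 and 2545. For P1d against E18.5d it turned 2505 higher and 3755 lower genes into 3215 and 3031, and for P7d against P1d it turned 2112 and 3901 into 3194 and 2473. Of the 10 genes, 3 were called higher and 5 lower at P7d against E18.5d with median of ratios. Quantile normalization gave the same 3 and 5, beside 2889 higher and 2937 lower of all tested genes. *Hk2* and *Pgam2* were the genes that lost their calls. Rescaling to an equal sum gave 1267 higher and 4443 lower genes at P7d against E18.5d, 1175 and 4694 at P1d against E18.5d, and 2200 and 1729 at P7d against P1d. Relative to the median of all tested genes, the changes from E18.5d to P7d ran from -1.72 for *Pgam1* to 3.95 for *Fbp2*, with *Pfkp* at -1.06, *Eno1* at -0.74, *Eno3* at 0.88 and *Pfkm* at 1.00. *Pgam2* lay at -0.01 and *Hk2* at -0.10 on this relative scale. With the *Xist* hearts left out, 1 of the 10 genes rose and 2 fell from E18.5d to P7d, 1 rose and 4 fell from E18.5d to P1d, and 3 rose and 0 fell from P1d to P7d, and no gene of the 10 turned its direction. Of all tested genes, that fit called 0.683% higher and 0.742% lower at P7d against E18.5d, 1.76% and 4.29% at P1d against E18.5d, and 0.551% and 0.764% at P7d against P1d. In the fit of all 9 hearts, a fitted absolute log2 change of at least 1 was also required as an alternative. This left 1 of the 10 higher and 2 lower at P7d against E18.5d (1.96% and 2.81% of all tested genes). It left 1 and 3 at P1d against E18.5d (1.91% and 3.35%), and 3 and 0 at P7d against P1d (1.78% and 2.29%).

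**Figure D1:**
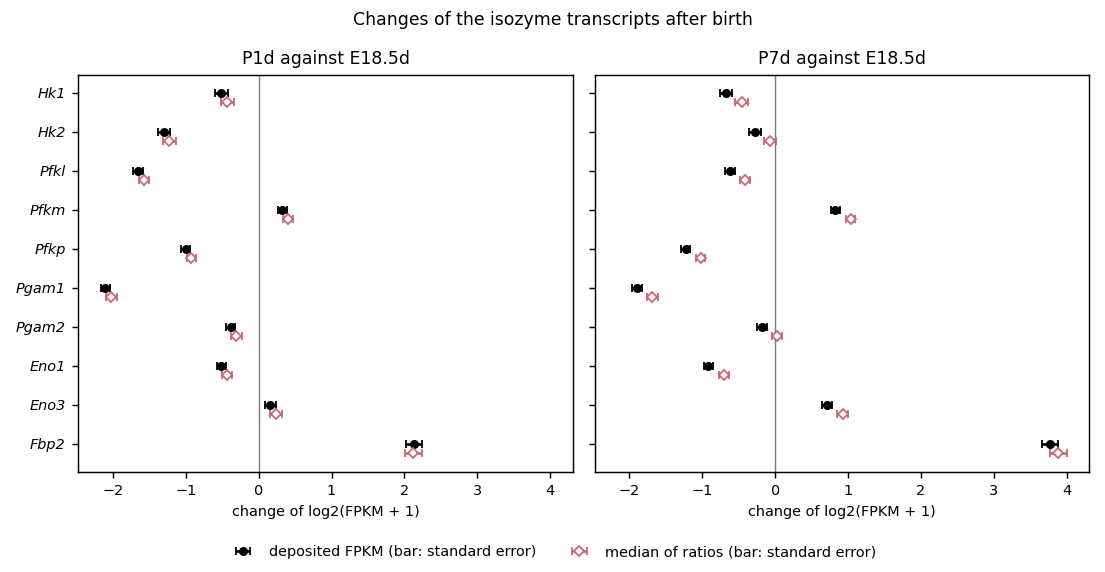
Change of each isozyme transcript on the scale of log2(FPKM + 1) at P1d and at P7d against E18.5d (x axis), with its standard error, from the deposited FPKM (filled) and after median of ratios (open). *Pgam1* lies farthest to the left in both panels, *Fbp2* farthest to the right, and *Pgam2* at P7d moves from -0.18 to 0.03 with the scaling.

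Hexokinase was represented mainly by *Hk1* (ENSMUSG00000037012.18, chr10:62268855-62379908, minus strand of GRCm38), the widely expressed hexokinase I. *Hk1* was at 169.82, 170.94 and 154.99 FPKM in the E18.5d hearts, at 125.52, 101.79 and 120.68 in the P1d hearts and at 97.75, 109.75 and 102.67 in the P7d hearts. All hearts after birth lay below all E18.5d hearts, and the P1d and P7d hearts overlapped. The log2 change was -0.51 ± 0.085 (SE) at P1d against E18.5d (adjusted p = 0.00113) and -0.67 at P7d against E18.5d (adjusted p = 0.000219). Between P1d and P7d it was -0.16 (adjusted p = 0.155), and this reached 0.0203 without P1d replicate 2, at a log2 change of -0.25.

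*Hk2* (ENSMUSG00000000628.10, chr6:82725025-82774454, minus strand), which encodes the hexokinase of insulin-responsive muscle and fat, dipped at birth and came back. It was at 46.97, 45.94 and 47.31 FPKM at E18.5d, 16.42, 19.44 and 19.47 at P1d, and 40.65, 39.27 and 35.53 at P7d. No heart of one stage reached the range of another, with P1d lowest and E18.5d highest. By limma *Hk2* fell by 1.30 ± 0.078 (SE) on the log2 scale from E18.5d to P1d (adjusted p = 3.78e-06), a 2.53-fold lower mean, and rose by 1.02 from P1d to P7d (adjusted p = 2.15e-05). Its remaining difference at P7d against E18.5d, a log2 change of -0.28 (adjusted p = 0.0156), was -0.07 with median of ratios (adjusted p = 0.540), -0.13 with quantile normalization (adjusted p = 0.229) and -0.22 without P7d replicate 3 (adjusted p = 0.0602). *Hk2* was, without the hearts with *Xist*, still lower at P1d than at E18.5d (log2 change -1.28, adjusted p = 0.0241) and higher at P7d than at P1d (1.10, adjusted p = 0.0492), while *Hk1* at P7d against E18.5d came to -0.80 (adjusted p = 0.0989).

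The *Hk2* promoter window is shown as one that holds ACGTG at 2 places, as a window of *Hk1* and one of *Pfkm* also do. The window of *Pfkl*, which was likewise lowest at P1d, holds no ACGTG. Whether ACGTG bears on the change of any of these genes was not tested. ACGTG is the core of the element bound by hypoxia-inducible factors. Windows of 250 bases before to 50 bases after the annotated start were taken from RefSeq, build GRCm38.p6, in which all 10 genes matched with 16 windows in all. ACGTG, searched on both strands, was in 6 of these 16 windows, those of *Hk2*, *Hk1*, *Pfkm* (2 windows), *Pgam1* and *Fbp2*, and in 19.6% of the 32851 windows of all genes. The window below is chr6:82774405-82774704, minus strand, 5′ to 3′, with ACGTG or its reverse complement in capitals. A match is a description of the letters, and no binding was measured.
Hk2: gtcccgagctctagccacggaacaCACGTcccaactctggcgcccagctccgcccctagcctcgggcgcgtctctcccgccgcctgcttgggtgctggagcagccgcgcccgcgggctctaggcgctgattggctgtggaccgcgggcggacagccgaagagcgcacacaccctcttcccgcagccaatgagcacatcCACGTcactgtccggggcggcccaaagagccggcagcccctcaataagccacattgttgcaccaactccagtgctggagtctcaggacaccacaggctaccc

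*Pfkm*, the muscle form of phosphofructokinase, rose while *Pfkl*, the liver form, and *Pfkp*, the platelet form, fell. In FPKM *Pfkm* was the highest of the 3 at every stage, an order that depends on the gene lengths the authors used. *Pfkm* (ENSMUSG00000033065.13, chr15:98092589-98132451, plus strand) was at 126.38, 127.51 and 117.14 FPKM at E18.5d, 148.31, 164.87 and 151.61 at P1d, and 224.95, 225.6 and 208.81 at P7d. Each stage lay wholly above the one before. The log2 change was 0.32 ± 0.063 (SE) at P1d against E18.5d (adjusted p = 0.00268), 0.50 at P7d against P1d (adjusted p = 0.000273) and 0.82 at P7d against E18.5d (adjusted p = 1.16e-05), a 1.78-fold higher mean. With the columns brought to an equal sum, the first of these *Pfkm* values was 0.15 (adjusted p = 0.137).

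*Pfkl* (ENSMUSG00000020277.9, chr10:77986947-78010083, minus strand) was at 66.68, 68.61 and 64.98 FPKM at E18.5d, 19.78, 22.45 and 19.48 at P1d, and 42.98, 44.38 and 42.03 at P7d. As with *Hk2*, the P1d hearts were the lowest and the stages did not overlap. *Pfkl* fell by 1.65 ± 0.064 (SE) on the log2 scale from E18.5d to P1d (adjusted p = 4.89e-07), a 3.25-fold lower mean, and rose by 1.04 from P1d to P7d (adjusted p = 9.30e-06). At P7d it was still lower than at E18.5d, by a log2 change of -0.62 (adjusted p = 6.63e-05). *Pfkp* (ENSMUSG00000021196.13, chr13:6579768-6648777, minus strand) was at 99.43, 101.89 and 96.7 FPKM at E18.5d, 50.11, 45.8 and 51.86 at P1d, and 41.87, 40 and 43.64 at P7d, so that each stage lay below the one before without overlap. Its log2 change was -0.999 ± 0.062 (SE) at P1d against E18.5d (adjusted p = 4.46e-06) and -1.23 at P7d against E18.5d (adjusted p = 9.41e-07), a 2.37-fold lower mean. The further step of *Pfkp* from P1d to P7d (-0.23, adjusted p = 0.0144) was -0.10 with median of ratios (adjusted p = 0.217), -0.10 with equal sums (adjusted p = 0.576), -0.11 with quantile normalization (adjusted p = 0.187), -0.21 with the *Xist* covariate (adjusted p = 0.0868) and -0.20 without P7d replicate 2 (adjusted p = 0.0554). In the 5 hearts low in *Xist*, *Pfkp* was at -1.26 (adjusted p = 0.0371), *Pfkl* at -0.66 (adjusted p = 0.103) and *Pfkm* at 0.81 (adjusted p = 0.0646) in P7d against E18.5d.

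**Figure D2:**
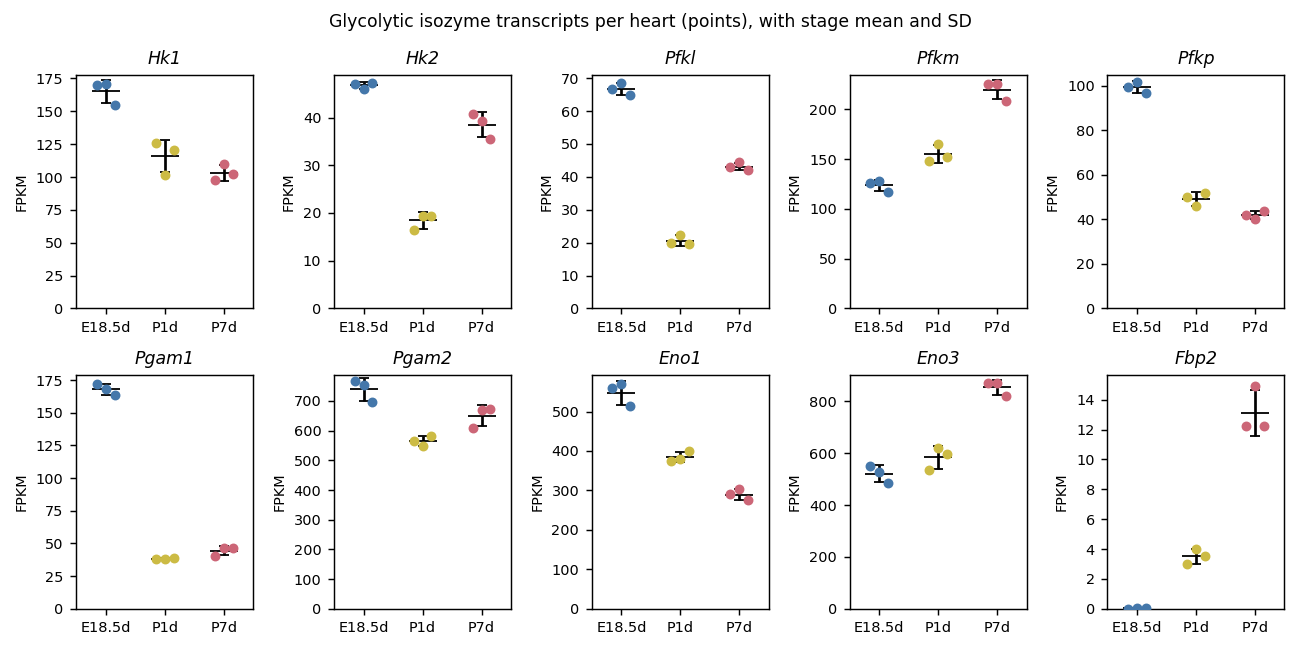
FPKM (y axis, from 0) of each isozyme transcript in the 9 hearts (points) by stage, with the stage mean and SD as black bars. *Hk2* and *Pfkl* are lowest at P1d, *Pfkm* and *Eno3* highest at P7d, and *Fbp2* runs from at most 0.06 FPKM at E18.5d to 12.23 FPKM or more at P7d.

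Among the phosphoglycerate mutases, *Pgam1* fell steeply at birth and *Pgam2* little. *Pgam1* (ENSMUSG00000011752.6, chr19:41911923-41918660, plus strand), the brain form that is also expressed in most foetal tissues, was at 172.25, 167.82 and 163.54 FPKM at E18.5d, 37.82, 38.16 and 39.17 at P1d, and 40.33, 46.84 and 46.37 at P7d. Every heart after birth lay far below every E18.5d heart. *Pgam1* fell by 2.10 ± 0.065 (SE) on the log2 scale from E18.5d to P1d (adjusted p = 1.43e-07), a 4.37-fold lower mean, and its log2 change at P7d against E18.5d was -1.89 (adjusted p = 1.64e-07). Without the hearts with *Xist* these were -2.10 (adjusted p = 0.00709) and -2.03 (adjusted p = 0.0170). From P1d to P7d *Pgam1* rose by 0.21 (adjusted p = 0.0277), a call lost with P1d replicate 1 left out (0.20, adjusted p = 0.0713), P1d replicate 2 (0.20, adjusted p = 0.0541), P7d replicate 2 (0.17, adjusted p = 0.0976) or P7d replicate 3 (0.18, adjusted p = 0.0958), in a fit of just the 2 stages (0.21, adjusted p = 0.0613) and with a covariate for *Xist* (0.14, adjusted p = 0.204).

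*Pgam2* (ENSMUSG00000020475.3, chr11:5801640-5803733, minus strand), the muscle form, was at 767.81, 752.58 and 695.66 FPKM at E18.5d, 565.03, 549.87 and 583.55 at P1d, and 608.44, 670.53 and 673.12 at P7d. The stages did not overlap, but the P7d and E18.5d hearts came within a narrow gap. *Pgam2* fell by 0.38 ± 0.065 (SE) on the log2 scale from E18.5d to P1d (adjusted p = 0.00125). At P7d against E18.5d the log2 change of *Pgam2* was -0.18 (adjusted p = 0.0405), and its sign turned with median of ratios (0.03, adjusted p = 0.769) and with quantile normalization (0.06, adjusted p = 0.496). That call was also lost with the replicate number as a block (adjusted p = 0.0659), with no filter (0.0676), equal sums (0.107), eBayes without trend (0.0574) or the *Xist* covariate (0.0583), and with E18.5d replicate 1 (adjusted p = 0.128), E18.5d replicate 2 (0.120), P1d replicate 1 (0.0511), P7d replicate 1 (0.148), P7d replicate 2 (0.0593) or P7d replicate 3 (0.0526) left out. From P1d to P7d *Pgam2* rose by 0.20 (adjusted p = 0.0321), which was lost with the block (adjusted p = 0.0551), with no filter (0.0570), with the *Xist* covariate (0.176), in a fit of just the 2 stages (0.0525) and with E18.5d replicate 2 (0.0513), P1d replicate 1 (0.0692), P1d replicate 2 (0.0726), P7d replicate 2 (0.101) or P7d replicate 3 (0.103) left out. In the 5 hearts low in *Xist*, *Pgam2* was at -0.31 in P7d against E18.5d (adjusted p = 0.254) and at -0.41 in P1d against E18.5d (adjusted p = 0.0948).

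The promoter windows of *Pgam1* and *Pgam2* are set side by side because these genes encode the same activity. Whether the matches below bear on how the genes changed was not tested. The *Pgam1* window, chr19:41911621-41911920 on the plus strand, holds ACGTG once, beginning at base -114 from the start site, and no match to the MEF2 consensus, the site of the myocyte enhancer factors. The *Pgam2* window, chr11:5803747-5804046 on the minus strand, holds no ACGTG and matches the MEF2 consensus once, beginning at base -80. The MEF2 consensus, searched on both strands, was in 1 of the 16 windows of the 10 genes and in 3.19% of all windows. The windows of the muscle forms *Pfkm* and *Eno3*, which rose, hold no match to it. The E-box CANNTG, the same on both strands, was in 10 of the 16 windows and in 72.3% of all windows, and AAGGTCA, a nuclear receptor half-site, was in 1 of the 16 (an *Eno1* window) and in 4.72% of all windows. The capitals mark ACGTG in *Pgam1* and the MEF2 match in *Pgam2*, both 5′ to 3′.
Pgam1: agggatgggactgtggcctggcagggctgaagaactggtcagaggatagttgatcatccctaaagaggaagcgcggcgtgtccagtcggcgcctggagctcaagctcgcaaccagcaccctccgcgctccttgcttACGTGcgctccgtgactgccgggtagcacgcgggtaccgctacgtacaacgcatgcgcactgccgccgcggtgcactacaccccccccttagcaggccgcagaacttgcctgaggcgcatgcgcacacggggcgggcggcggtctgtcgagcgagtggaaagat
Pgam2: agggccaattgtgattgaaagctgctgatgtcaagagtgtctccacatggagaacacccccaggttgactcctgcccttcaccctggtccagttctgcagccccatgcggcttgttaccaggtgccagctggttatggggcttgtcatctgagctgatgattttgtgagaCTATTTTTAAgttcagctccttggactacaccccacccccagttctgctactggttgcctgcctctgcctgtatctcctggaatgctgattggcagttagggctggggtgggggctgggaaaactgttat

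The enolases moved in opposite directions. *Eno1* (ENSMUSG00000063524.13, chr4:150236721-150248879, plus strand), the alpha form of most tissues and of the foetal heart, was at 558.83, 570.76 and 513.26 FPKM at E18.5d, 373.78, 379.37 and 398.73 at P1d, and 289.81, 303.95 and 275.31 at P7d. Each stage lay wholly below the one before. The log2 change of *Eno1* was -0.51 ± 0.063 (SE) at P1d against E18.5d (adjusted p = 0.000207), -0.41 at P7d against P1d (adjusted p = 0.000889) and -0.92 at P7d against E18.5d (adjusted p = 6.24e-06), a 1.89-fold lower mean.

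*Eno3* (ENSMUSG00000060600.15, chr11:70657202-70662513, plus strand), the beta form of striated muscle, was at 549.27, 528.73 and 487.1 FPKM at E18.5d, 534.01, 620.24 and 598.61 at P1d, and 869.37, 872.15 and 821.16 at P7d. The P7d hearts lay above all others, and P1d replicate 1 lay within the range of the E18.5d hearts. *Eno3* rose by 0.55 on the log2 scale from P1d to P7d (adjusted p = 0.000391) and by 0.71 ± 0.074 (SE) from E18.5d to P7d (adjusted p = 6.66e-05), a 1.64-fold higher mean. Its value at P1d against E18.5d was 0.16 (adjusted p = 0.0989), which became 0.24 with median of ratios (adjusted p = 0.0317), 0.22 with quantile normalization (adjusted p = 0.0101), 0.23 without P1d replicate 1 (adjusted p = 0.0339) and -0.01 with equal sums (adjusted p = 0.913). Leaving out the *Xist* hearts, P7d against E18.5d gave -0.98 for *Eno1* (adjusted p = 0.0509) and 0.72 for *Eno3* (adjusted p = 0.101).

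*Fbp2* (ENSMUSG00000021456.7, chr13:62836877-62858422, minus strand) encodes the muscle isozyme of fructose-1,6-bisphosphatase, which runs the phosphofructokinase step backwards. It was at 0, 0.03 and 0.06 FPKM at E18.5d, 3.02, 4.03 and 3.53 at P1d, and 12.23, 14.92 and 12.24 at P7d. No stage overlapped another, and the level at E18.5d corresponded to 3 fragments over the 3 hearts, against 313 at P1d and 1694 at P7d. Per fragment sequenced this is a ratio of 117 (exact 95% interval 39.7 to 571) for P1d over E18.5d and of 436 (149 to 2118) for P7d over E18.5d, intervals that cover counting error only. On the log2(FPKM + 1) scale *Fbp2* rose by 2.13 ± 0.11 (SE) from E18.5d to P1d (adjusted p = 2.28e-06), by 1.64 from P1d to P7d (adjusted p = 1.41e-05) and by 3.77 from E18.5d to P7d (adjusted p = 1.64e-07). Without the hearts with *Xist* these were 2.13 (adjusted p = 0.0186), 1.55 (adjusted p = 0.0451) and 3.68 (adjusted p = 0.0170). Even at P7d *Fbp2* was well below the phosphofructokinases, whose lowest P7d value was 40 FPKM.

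The *Fbp2* promoter window, chr13:62858351-62858650 on the minus strand, is shown because no other of the 10 genes was near 0 before birth. The capitals mark CACGTG, a palindrome in which ACGTG matches on both strands at overlapping positions and which is at the same time a CANNTG match.
Fbp2: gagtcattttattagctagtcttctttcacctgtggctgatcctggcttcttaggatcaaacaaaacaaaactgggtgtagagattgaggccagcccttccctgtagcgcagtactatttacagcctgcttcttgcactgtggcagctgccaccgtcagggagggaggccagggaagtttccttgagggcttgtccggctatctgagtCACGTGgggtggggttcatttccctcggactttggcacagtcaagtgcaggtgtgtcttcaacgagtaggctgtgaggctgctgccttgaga

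Shares within a family do not depend on the scale of a column, since numerator and denominator come from the same heart. A gene length other than the one the authors used would shift the share of an isozyme in all hearts in the same direction. *Eno3* made up 49.6%, 48.1% and 48.7% of enolase FPKM in the E18.5d hearts, 58.8%, 62.0% and 60.02% at P1d, and 75.0%, 74.2% and 74.9% at P7d. The stages did not overlap, and the means were 48.8% ± 0.744, 60.3% ± 1.63 and 74.7% ± 0.459 (SD, n = 3 each). *Pfkm* took 42.7% ± 0.606 of phosphofructokinase FPKM before birth, 68.9% ± 1.58 on P1d and 72.1% ± 1.04 on P7d. In that family *Pfkp* went from 34.3% ± 0.354 through 22.0% ± 2.01 to 13.7% ± 0.978, and *Pfkl* from 23.0% ± 0.255 to 9.14% ± 0.452 and back to 14.2% ± 0.244. The *Pfkm* share at P7d exceeded that at E18.5d by 29.4 percentage points, the *Eno3* share by 25.9.

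*Pgam2* was the main phosphoglycerate mutase before birth already, at 81.7%, 81.8% and 81.0% in the E18.5d hearts. It stood at 93.6% ± 0.120 at P1d and 93.6% ± 0.162 at P7d, so that *Pgam1* went from 18.5% to 6.35% and 6.40%. The rise of 12.2 points was there at P1d, and the difference of P7d from P1d was -0.046 points, smaller than the SD of either stage. The *Hk2* share of hexokinase had means of 22.1% ± 1.16, 13.8% ± 2.23 and 27.1% ± 1.96 in stage order, and the hearts of the stages did not overlap. It was thus lower than at E18.5d by 8.25 points at P1d and higher by 5.07 points at P7d.

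Across the 3 stages, an exact permutation test over all 1680 assignments of the hearts gave p = 0.00357 for the shares of *Hk2*, *Pfkl*, *Pfkm*, *Pfkp* and *Eno3*, the smallest p this design can give (0.00429 adjusted over the 6 shares). For *Pgam2* the exact permutation test gave p = 0.0321 (adjusted 0.0321). Each pair of stages gave p = 0.1 in the two-sided exact permutation test for all 6 shares, the lowest value that 3 hearts against 3 allow, except for *Pgam2* between P1d and P7d (p = 0.9). Without the hearts with *Xist* the stage means of the shares spanned 15.5 points for *Hk2*, 13.9 for *Pfkl*, 29.8 for *Pfkm*, 20.7 for *Pfkp* and 26.9 for *Eno3* (exact permutation p = 0.1 for each) and 12.02 for *Pgam2* (p = 0.2).

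**Figure D3:**
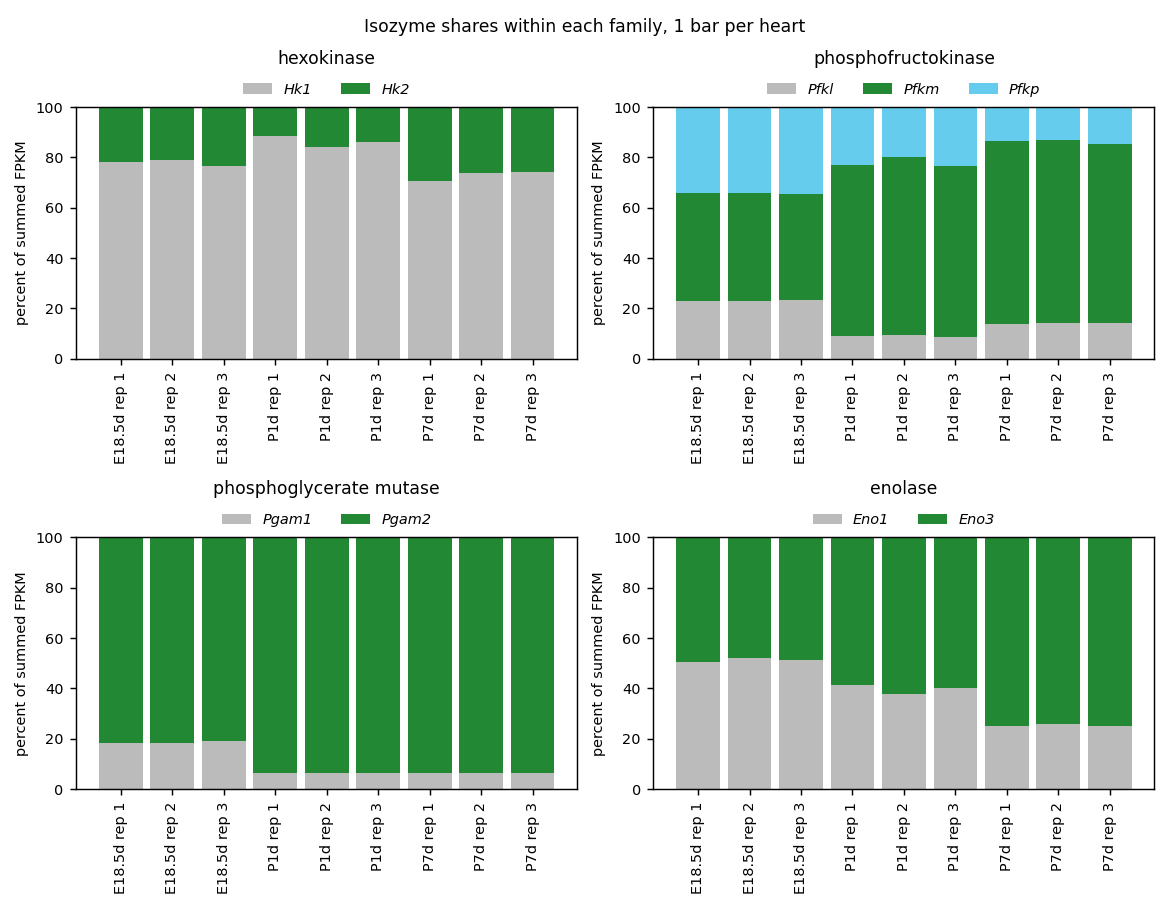
Percent of the summed FPKM of each family (y axis) taken by each isozyme, with 1 stacked bar per heart (x axis, by stage and replicate). The muscle forms *Pfkm*, *Pgam2* and *Eno3* (green) take more after birth, from a mean of 42.7%, 81.5% and 48.8% at E18.5d to 72.1%, 93.6% and 74.7% at P7d, while *Hk2* dips to 13.8% at P1d.

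The summed level of each family had its lowest mean at P1d. Hexokinase FPKM summed to 212 ± 8.39, 134 ± 11.5 and 142 ± 6.19 in stage order (mean ± SD, 3 hearts each). Phosphofructokinase went from 290 ± 9.88 to 225 ± 7.62 and 305 ± 8.90 FPKM, and phosphoglycerate mutase from 907 ± 42.2 to 605 ± 17.4 and 695 ± 40.2. Enolase was at 1069 ± 59.9, 968 ± 52.4 and 1144 ± 41.95 FPKM, the highest sum of the 4 families at every stage. The hexokinase hearts of P1d and P7d overlapped, and so did the E18.5d and P7d hearts of phosphofructokinase and of enolase. These sums were not tested and move with the scale of the columns.

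**Figure D4:**
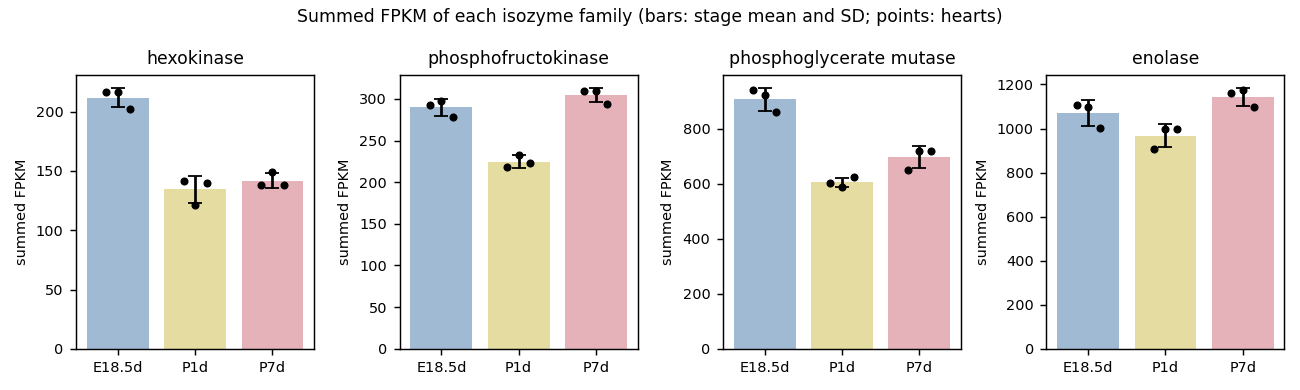
Summed FPKM (y axis, from 0) of the isozymes of each family by stage, as mean (bars), SD (error bars) and hearts (points). All 4 means are lowest at P1d, and the P7d hearts of hexokinase and phosphoglycerate mutase lie below their E18.5d hearts.

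The other steps of glycolysis were counted in the same way. Of the 14 listed genes of those steps, 9 had a mean high enough to be tested. From E18.5d to P7d 8 of the 9 fell, none rose, and *Ldhb* did not pass, with a median log2 change of -0.74, beside 36.9% of all tested genes called lower and a median of -0.17. The largest of these falls were those of *Aldoc*, an aldolase best known from brain, at -2.26 (adjusted p = 1.61e-06) and of *Pgk1*, phosphoglycerate kinase, at -1.17 (adjusted p = 7.33e-06). *Ldha*, the lactate dehydrogenase subunit of fast muscle, changed by -0.94 (adjusted p = 1.35e-05), and the smallest fall was that of *Pkm*, pyruvate kinase, at -0.33 (adjusted p = 0.00114). *Ldhb*, the heart subunit, was at -0.14 (adjusted p = 0.0622), and its sign turned with median of ratios (0.07) and quantile normalization (0.14). From E18.5d to P1d the 8 others fell (median -0.57 over the 9, beside 27.6% of all tested genes called lower and a median of -0.06) and *Ldhb* rose, by 0.18 (adjusted p = 0.0219). This *Ldhb* call was lost with equal sums (0.01), in a fit of just the 2 stages (adjusted p = 0.0557), with the *Xist* covariate (0.123) and without E18.5d replicate 1 (0.0519), E18.5d replicate 3 (0.0697), P1d replicate 1 (0.0566) or P1d replicate 2 (0.0516). In the same comparison *Gpi1*, glucose phosphate isomerase, lost its call with median of ratios (-0.14, adjusted p = 0.0895), with quantile normalization (-0.13, adjusted p = 0.0798), with the *Xist* covariate (adjusted p = 0.0633) and without E18.5d replicate 2 (adjusted p = 0.0745). For P7d against E18.5d, *Pkm* lost its call with median of ratios (-0.12) and quantile normalization (-0.07) and *Aldoa* with the latter (-0.13). In the 5 hearts low in *Xist*, 1 of the 9 genes passed at P7d against E18.5d (*Aldoc*) and 4 at P1d against E18.5d, all lower, beside 0.742% and 4.29% of all tested genes called lower. From P1d to P7d, 2 of the 9 rose and 5 fell, with a median of -0.30, beside 15.5% and 28.6% of all tested genes and a median of -0.09.

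The enzymes that make or break down fructose 2,6-bisphosphate, the activator of phosphofructokinase, did not move as a group. Of 5 listed and tested, *Pfkfb2*, the heart form, rose from E18.5d to P7d by 0.70 (adjusted p = 0.000138), *Tigar*, a bisphosphatase, rose by 0.48 (adjusted p = 0.000448), *Pfkfb3* changed by -0.87 (adjusted p = 0.000614), and *Pfkfb1* and *Pfkfb4* did not pass. With the *Xist* hearts left out, which leaves 1 heart each at E18.5d and P7d, these changes were 0.92 (*Pfkfb2*), 0.54 (*Tigar*) and -0.88 (*Pfkfb3*). For P1d against E18.5d that fit gave 0.45 for *Pfkfb2* and -0.54 for *Pfkfb3*. At P1d 1 of the 5 was higher than at E18.5d (*Pfkfb2*) and 1 lower (*Pfkfb3*), the first of which was lost with equal sums (0.15, adjusted p = 0.353) and without E18.5d replicate 2 (adjusted p = 0.0523), and from P1d to P7d 2 rose and none fell. Of the 6 listed genes of gluconeogenesis 4 were tested. *Pck1*, the cytosolic phosphoenolpyruvate carboxykinase, rose from E18.5d to P7d by 0.96 (adjusted p = 0.00162), at a mean of 1.16 FPKM against 0.107, and without P1d replicate 1 its overall mean was too low to be tested. *Pcx*, pyruvate carboxylase, was lower at -1.18 (adjusted p = 1.39e-05). Without the *Xist* hearts *Pck1* changed by 1.09 at P7d and by 1.51 at P1d against E18.5d, and *Pcx* by -0.56 at P1d against E18.5d. At P1d against E18.5d, 1 of 4 was higher (*Pck1*) and 1 lower (*Pcx*), and from P1d to P7d 3 of the 4 fell. The counts of both lists stand beside 12.5% of all tested genes called higher and 36.9% lower from E18.5d to P7d. These shares were 18.4% and 27.6% from E18.5d to P1d, and 15.5% and 28.6% from P1d to P7d. *Fbp1*, the liver counterpart of *Fbp2*, was too low to be tested.

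**Figure D5:**
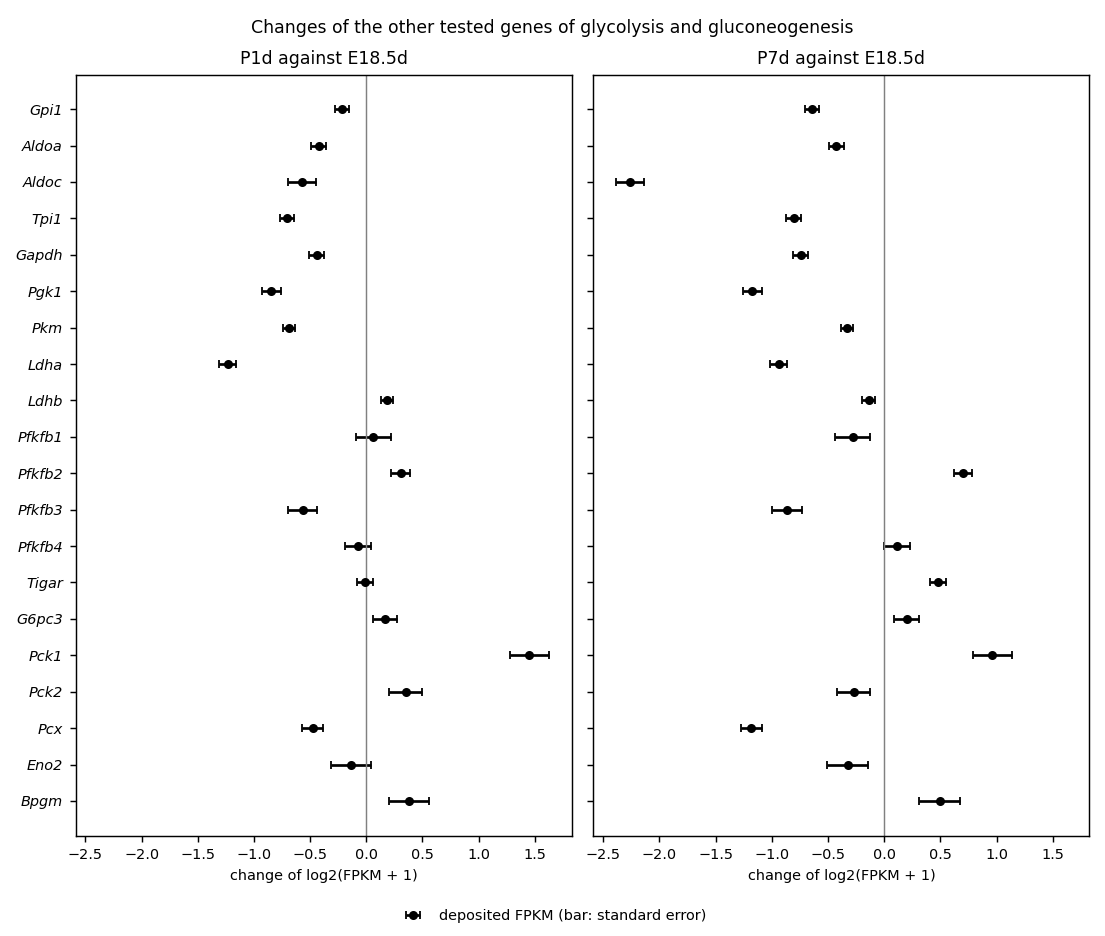
Change on the scale of log2(FPKM + 1) at P1d and P7d against E18.5d (x axis), with standard error, of the 20 other tested genes of glycolysis and gluconeogenesis. From *Gpi1* to *Ldha* all values lie left of 0 in both panels, with *Aldoc* at -2.26 at P7d, and *Pfkfb2* and *Pck1* lie to the right.

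Other isozymes of the 4 families and of *Fbp2* contributed little. Of 8 listed, 6 had a mean under 1 FPKM. Of the 2 tested only *Bpgm*, the bisphosphoglycerate mutase of red blood cells, passed at P7d against E18.5d (0.49, adjusted p = 0.0451), with overlapping hearts. This stands beside 12.5% of all tested genes called higher. The *Bpgm* call was lost with any 1 heart left out other than E18.5d replicate 3 or P1d replicate 3, at adjusted p from 0.0506 to 0.1502. *Eno2*, the gamma form of neurons, did not pass in any of the 3 comparisons, and neither gene passed in the other 2. Copies were looked up only by name, as *Eno1b* and as pseudogenes with the symbol of a member and the ending -ps. *Eno1b* reached at most 0.96 FPKM, and the pseudogenes *Pgam1-ps2* and *Pgam1-ps1* at most 1.25 and 0.35 FPKM. Copies under other names were not examined, and how shared reads were counted is not known. *Pgam1* and *Pgam2* shared 75.2% of aligned coding bases and *Eno1* and *Eno3* 77.0%, and the longest run of identical bases between any 2 isozymes of a family was 28 bases, for *Pgam1* and *Pgam2*.

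Among the 10 genes, the closest pair of profiles over the 9 hearts was *Pfkm* and *Eno3*, with a root mean square difference of 0.0766 between their centred log2 values, followed by *Hk1* and *Eno1* (0.142) and *Hk2* and *Pfkl* (0.182). In the first pair the P7d hearts were highest, in the second the E18.5d hearts, and in the third the P1d hearts were lowest. Over all tested genes, the profile nearest to *Pgam1* was that of *Cks2*, a cyclin-dependent kinase subunit, at a difference of 0.159, and next came *Dynll1* (0.207) and *Ube2c* (0.217). *Cks2* had means of 56.4 FPKM before birth, 15.5 on P1d and 17.6 on P7d. Nearest to *Pfkl* were *Ankrd37* (0.111), *Mycn* (0.113) and *Haspin* (0.135), nearest to *Hk2* were *Zfp324* (0.0784), *Serpinh1* (0.114) and *Zfp60* (0.130), and nearest to *Pfkp* were *Sphkap* (0.0711), *Psat1* (0.0919) and *Tm6sf1* (0.0936). The measure grows with the range of a gene, so a larger value does not mean that a gene has fewer like it. Nearest to *Fbp2*, which had the widest range of the 10, were *Scgb1c1* (0.350), *Ucp3* (0.447) and *Plin5* (0.468). *Ucp3*, a mitochondrial carrier of muscle, went through means of 0.0467, 7.24 and 22.8 FPKM in stage order, and *Plin5*, a lipid droplet protein of oxidative tissues, from 1.55 through 16.6 to 26.0. The hearts of a stage share their age, so a small difference over 9 hearts is a description of these profiles.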

How the data were processed

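The authors sequenced RNA of 9 hearts and deposited FPKM values per gene, 1 column per heart. The labels' processing notes name STAR (no version) with GRCm38 (mm10), and the counting tool and annotation are not given in the sources used here. Annotation came from GENCODE M21. Every column matched a sample label, and no heart was left out of the main comparisons. FPKM are not counts. Depth came from the step size of low values, of which 87.4% to 92.5% were whole within 0.15 fragments. Replicates are labelled as biological.

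FPKM were transformed to log2(FPKM + 1), and the genes averaging 1 FPKM or more entered 1 limma fit of all stages (limma 3.58.1, R 4.3.3, eBayes with trend). Calls used a Benjamini-Hochberg adjusted p under 0.05. Shares were tested by exact permutation in Python 3.11.15 with scipy 1.17.1. The fit was tested on simulated data. The genes named were the 10 isozymes, 4 lists of related genes, copies, and the 3 genes with the smallest root mean square difference from each isozyme whose stage means differ by at least 1 on the log2 scale. These genes and lists were chosen with earlier results of these data known. Alternatives were a pseudocount of 0.1, no filter or one of 5 FPKM, 3 rescalings (equal sum, median of ratios, quantile), eBayes without trend, only the 2 stages compared, the replicate block, a covariate for *Xist* or leaving out the 4 hearts above 1 FPKM of *Xist*, a minimum absolute log2 change of 1, and each heart left out in turn.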

Additional observations from a re-analysis of the deposited data

How the results depend on the processing

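Over the alternatives, 553 of 630 values of the 10 genes kept their direction and their side of the threshold, 70 lost the call, 4 gained it and 3 reversed. A pseudocount of 0.1 and a filter of 5 FPKM changed none of these calls. The reversals were *Pgam2*, P7d against E18.5d (0.0292 with median of ratios, 0.0594 with quantile normalization), and *Eno3*, P1d against E18.5d (-0.0119 with equal sums). *Ldhb*, P7d against E18.5d, also reversed (0.0737 with median of ratios, 0.139 with quantile normalization), as did the *Pgam2* share of P7d minus P1d (0.448 points with quantile normalization, 0.135 without the hearts with *Xist*). Their cause was not tested.

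Members of the 10 called higher and lower were 1 and 2 from E18.5d to P7d, 1 and 4 from E18.5d to P1d and 3 and 0 from P1d to P7d without the hearts with *Xist*, where fewer hearts remain. They were 1 and 2, 1 and 3, and 3 and 0 with an absolute log2 change of at least 1, a stricter rule by construction. Of all tested genes, 0.683% were higher and 0.742% lower from E18.5d to P7d without the hearts with *Xist*, and 1.96% and 2.81% under the stricter rule. With equal sums 1 was higher at P1d than at E18.5d, and 1 was lower at P7d than at P1d with equal sums, median of ratios, quantile normalization or the *Xist* covariate. Leaving out 1 heart, members higher were 3 from E18.5d to P7d, 2 to 3 from E18.5d to P1d and 5 to 7 from P1d to P7d, and members lower were 5 to 7, 7, and 1 to 3. The lowest of these, 1, came without P7d replicate 2. Shares of P7d minus P1d for *Pgam2* then ran from -0.136 to 0.0204 points. Without the hearts with *Xist* the ranges of the shares were 15.5, 13.9, 29.8, 20.7, 12.02 and 26.9 points for *Hk2*, *Pfkl*, *Pfkm*, *Pfkp*, *Pgam2* and *Eno3*, at exact permutation p of 0.1 (0.2 for *Pgam2*), a design too small to pass.

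Percent changes of the summed FPKM moved with the scale. With median of ratios, P7d against E18.5d came to -22.4 (hexokinase), 21.9 (phosphofructokinase), -11.1 (phosphoglycerate mutase) and 24.03 (enolase), P1d against E18.5d to -18.1 (phosphofructokinase) and -4.33 (enolase), and P7d against P1d to 15.9, 48.8, 26.2 and 29.6 in the order above. With equal sums, phosphofructokinase came to 2.07 from E18.5d to P7d, the 4 families to -43.1, -31.1, -40.5 and -19.6 from E18.5d to P1d, and P7d against P1d to 14.2, 48.2, 25.3 and 29.1.

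Hearts of the same replicate number did not deviate together (correlations of -0.055 to 0.112 over 9 pairs, 1 over 0.1), so the number was not taken as a pairing. The replicate block left 28 of 30 values of the 10 genes as they were, with *Pgam2* lost at P7d against E18.5d (adjusted p = 0.0659) and against P1d (adjusted p = 0.0551). Depth limits *Fbp2* at E18.5d, at 3 fragments in all.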
